A study of Mus musculus with 6 samples.

Results

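The genes described here encode the proteins of the cytosolic ribosome. They were chosen by name: a gene symbol starting with Rpl or Rps followed by a number, with at most 1 of the letters a, x or l after it, or Rplp0, Rplp1, Rplp2 or Rpsa, and a mean normalised count of at least 10 over the 6 libraries. Of 82 symbols with such a name, 73 passed, 44 of the large subunit and 29 of the small subunit, among 14840 genes at that mean and 53378 genes in all. Cells were neural stem cells (NSCs) from mouse cortex at E14.5, grown as neurospheres, of the Tbl1xr1 flox/flox genotype, in which loxP sites flank exon V of Tbl1xr1, a subunit of the NCoR/SMRT corepressor complex. All 6 libraries carried that floxed allele: 3 came from cells infected with a lentivirus carrying Cre with GFP (Cre 2, Cre 2_2 and Cre 3) and 3 from cells infected with GFP only (control 1, control 1_1 and control 2), and infected cells were sorted by their GFP. Which embryo or culture each library came from was not given in the sources used here, so a spread between libraries may be technical and p-values measure only that spread.

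The ribosome joins a large subunit, which forms peptide bonds, to a small subunit, which reads the messenger RNA. Cells make its proteins in matched amounts from single genes scattered over the genome. Their messengers start with a short run of pyrimidines (the terminal oligopyrimidine or TOP motif), through which mTORC1 and LARP1 control their translation. Reverse transcription of these abundant messengers has also left many processed copies, mostly pseudogenes without introns, which matter for how sequencing reads are assigned. Most members of the family are required for growth in dividing cells, and loss of a single copy of some of them in people causes Diamond-Blackfan anaemia.

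Between 7510615 and 14828100 reads per library were assigned to genes, and 1.01 to 1.35% of them fell on the 73 genes. The authors report that the sorted cells were checked for genotype and for absence of Tbl1xr1 mRNA and protein. The deposited counts over the whole gene were not lower in Cre. Tbl1xr1 stood at 2522, 2190 and 2721 normalised counts in the control libraries and at 3774, 3463 and 2905 in the libraries labelled Cre, which were all higher. The log2 difference was 0.45 and was not called (limma, adjusted p = 0.0600). Counts per gene do not show whether exon V was lost, so directions below are those of the libraries labelled Cre. Of the NSC markers all 10 were tested and 1, Nes, was lower, with means of 6229 in control and 3435 in Cre. By log2 difference 6 of the markers were above 0 and 4 below. Their summed level was 38962 to 42730 in control and 39461 to 41481 in Cre. Markers of the labelled cell type were thus present in both groups, while the near-equal sums hold differences in both directions. The summed astrocyte markers (6 genes, 4 tested, 3 of them higher) stood at 724 to 854 in control and 2852 to 3809 in Cre, and oligodendrocyte lineage markers (7 genes, 6 tested, 3 higher) at 5220 to 6432 and 9140 to 10272. Neuron markers (8 genes) summed to 9254 to 9472 in control and 10105 to 11329 in Cre, with none of the 5 tested genes called. Microglia markers summed to 164 to 206 and 167 to 274. Map2 held most of the neuron sum, with means of 9210 in control and 10541 in Cre, without overlap. Of the 5 tested neuron markers 3 had a log2 difference above 0 and 2 below. Snap25, and Dcx under the minimum mean, were lower in Cre without overlap. Olig2 held most of the oligodendrocyte lineage sum, with means of 5157 and 8380. Csf1r held most of the microglia sum, with means of 183 and 222. Endothelial markers summed to at most 40.4, fibroblast markers to at most 21.5 and erythroid markers to at most 10.4 in any library. Stmn2, Tmem119, Cdh5, Cldn5, Pdgfrb and Col1a2 were at 0 in every library, as were 4 erythroid genes, and Gfap, a defining astrocyte gene, had means of 1.82 in control and 4.73 in Cre. Most of the difference in the astrocyte sum lay in S100b, with means of 238 in control and 2064 in Cre, and Aldh1l1, another astrocyte marker, had means of 17.3 and 5.35, without overlap (log2 difference -1.65; limma, adjusted p = 0.0650). The part of the glial shift in the values below was not tested. Fewer cells of a type and less RNA per cell cannot be told apart in these bulk libraries.

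Many copies of these genes were close enough in sequence to take or share their reads. Shown here are coding stretches of 4 members and of 1 copy each, 5′ to 3′, with bases that differ between member and copy in capitals. They were chosen for copies that held many reads.
Rps13: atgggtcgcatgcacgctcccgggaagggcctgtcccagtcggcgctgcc
Rps13-ps2: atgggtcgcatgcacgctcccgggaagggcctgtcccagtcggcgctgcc
Rps10: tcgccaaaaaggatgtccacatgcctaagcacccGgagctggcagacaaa
Rps10-ps1: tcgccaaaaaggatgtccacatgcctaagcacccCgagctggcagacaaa
Rpl14: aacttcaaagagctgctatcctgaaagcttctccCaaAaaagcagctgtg
Rpl14-ps1: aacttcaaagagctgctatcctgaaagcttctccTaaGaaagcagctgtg
Rps26: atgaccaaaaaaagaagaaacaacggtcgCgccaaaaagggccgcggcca
Rps26-ps1: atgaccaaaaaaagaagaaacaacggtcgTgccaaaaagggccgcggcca
The copies were found by matching the members' coding sequences (GENCODE M1) to the mm9 genome, and the stretches of the copies lie at chr7:95679359-95679408 on the minus strand, chr3:95426264-95426313 on the plus strand, chr7:52580720-52580769 on the plus strand and chr8:109963413-109963462 on the minus strand. Over the whole coding sequence the Rps13 copy had 0 differences in 456 bases, the Rps10 copy 6 in 498, the Rpl14 copy 9 in 685 aligned positions and the Rps26 copy 2 in 348. Which build the deposited counts were made on is given both as mm9 and as mm10, so mm9 positions are given only for these matches.

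The 50-base windows of the members were rarely particular to their own gene. A window was called particular to its gene when no other place in mm9 matched it with at most 2 mismatches, and the share of such windows in the coding sequence was computed for the 72 members with a GENCODE M1 entry. For 57 of the 72 the share was 0%, and the median was 0%, against 100% over 75 mitochondrial ribosomal protein genes and 98.7% over 35 proteasome genes. With no mismatch allowed the median for the members was 10.0%, and 24 still stood at 0%. Rpl8 of the large subunit, with 91.2%, and Rps3 of the small subunit, which lies on the path of the messenger, with 57.0%, were among the members with the highest shares. In all, 991 places in mm9 matched a member over at least 80% of its coding sequence at 90% identity or more, with a median of 10 per member and up to 80 for Rpl21.

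The deposited levels of the members were very uneven. Because the proteins are made in matched amounts, levels are given per kb of coding sequence, as the mean normalised count over the 6 libraries. The highest was Rplp1, an acidic protein of the stalk that recruits the elongation factors, at 62692 per kb. High levels were also found for Rps20 at 50786, Rpl8 at 20318, Rpl22, a protein of the large subunit that also binds viral RNA, at 17956 and Rps26, which lines the exit path of the messenger, at 9736. Counts are per gene, and only 360 of the 3706 transcript bases of Rps20 are coding, so reads outside the coding sequence can raise its level. Members at the low end included Rps4l at 13.1 per kb, Rpl10a at 25.4 and Rpl11 at 28.5. The range among the 72 genes was 4770-fold. The 5 members with the highest means held 58.2% of the summed count of the family, and the 20 lowest held 0.523%.

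Members with windows of their own stood higher as a group. The 14 members with a share of 5% or more had a median of 5288 per kb, and the 58 members under 5% had a median of 269 per kb. Across the 72 genes Spearman's rho between the share and the level per kb was 0.48 (0.58 with no mismatch allowed, and 0.58 with 100-base windows). The genes share the same 6 libraries, and rho is a description across genes. Rps4l, a copy-like relative of Rps4x, was an exception with 45.3% of its windows its own at 13.1 per kb. Rps20 stood apart at the other end, with 0% and 50786 per kb. Both values rest on its coding sequence, 360 of 3706 transcript bases, and windows in the rest were not examined. Whether Rps20 stands apart over its whole transcript was not tested. Of its 4 matching places in mm9, 1 had a row in the table, at a mean of 2.01, and reads at the other places were not measured.

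Much of the family's signal lay on copies. A total of 520 rows of the table overlapped a matching place of a member, and their mean levels summed to 73534 normalised counts, 0.59 times the 124566 on the members. For 36 of the 73 members the copies held more than the gene itself. Rps14, a protein of the small subunit, had a mean of 1160 while its 1 annotated copy, the row Gm5805, held 13076. Rpl14 had a mean of 1308 and Rpl14-ps1 had 11548. Both genes were named after these levels were seen. Rps10 had a mean of 36.4 and Rps10-ps1 had 4835. Rps13 had a mean of 59.96 and its copies 3895, of which the identical copy Rps13-ps2 held 3871. Rps29 stood at 15.01 against 1449 on its copies, and Rpl11, which with Rpl5 binds Mdm2 when ribosome assembly fails, at 15.3 against 1782. How reads with several matching places were assigned was not given in the sources used here, and its part in these levels was not tested.

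**Figure D1:**
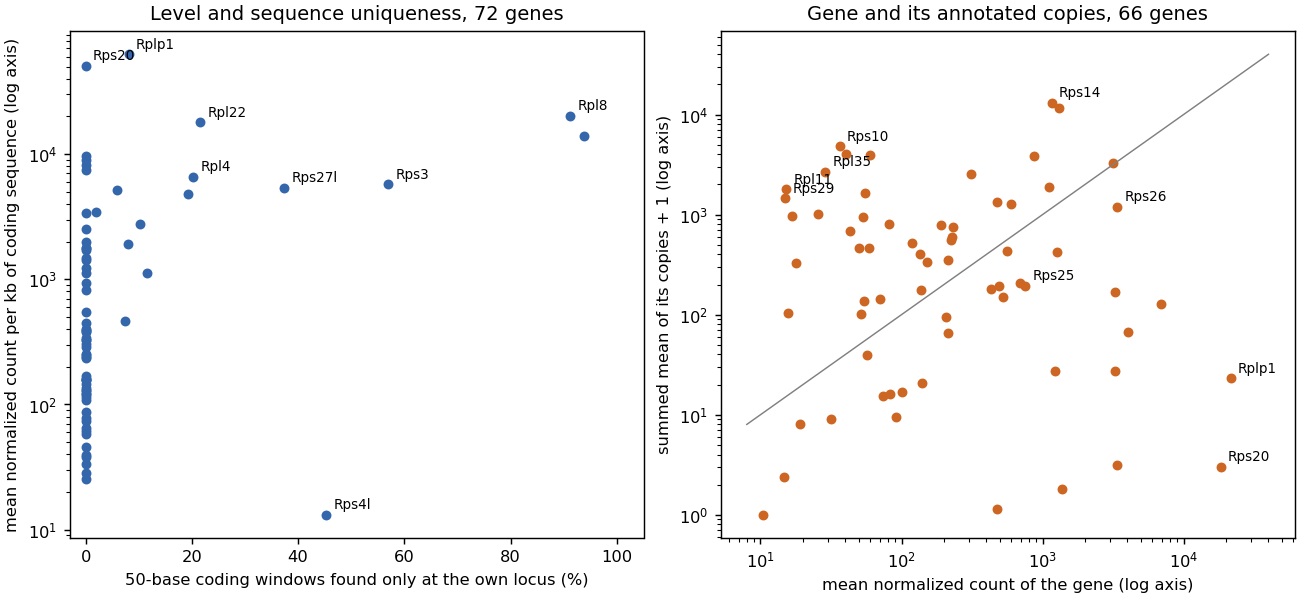
Left, the mean normalised count per kb of coding sequence (log axis) of 72 ribosomal protein genes against the percent of 50-base coding windows found only at the own locus. Right, the summed mean of the annotated copies of a gene plus 1 against the mean of the gene (both log axes) for 66 members with such a copy, where the line marks equal levels. Points stack at 0% on the left between 25.4 and 50786 per kb, and on the right 36 genes lie above the line.

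Also because of the minimum, 9 symbols of the family were left out. Rpl10l and Rpl39l, relatives expressed in the testis, had 0 reads in every library, which allows up to 3 reads per library. Rpl6l and Rpl3l, the latter a relative used in muscle, had means of 0.408 and 0.914 normalised counts. Rps6, the substrate of S6 kinase, stood at 0.918, 0 and 4.00 in control and 2.08, 6.03 and 0.895 in Cre. Rpl24, Rps16, Rps4x and Rpl10 had means of 4.54, 5.43, 7.59 and 7.96, and Rpl10 was the nearest outside the minimum. The nearest inside were Rps4l at a mean of 10.4 and Rps27 at 14.7. Rps6, Rps16, Rps4x and Rpl10 are core proteins of the ribosome, and each had between 7 and 16 matching places in mm9, so few messengers and reads assigned to copies cannot be told apart. The annotated copies of Rpl10 held 654, those of Rps16 held 213 and those of Rps6 held 77.1, while those of Rps4x held 0.933, less than the gene.

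The main comparison asked which of these genes differed between Cre and control libraries. Tests were run with limma on log2(normalised count + 1) over all 14840 genes, and differences are Cre minus control on that scale, which understates the change of low genes. No member was higher at an adjusted p under 0.05 and 5 were lower, 6.85% of 73, against 774 of 14840 genes lower, or 5.22%, and 704 higher, or 4.74%. The count of 5 was near the background. At an unadjusted p under 0.05 no member was higher in limma, against 12.2% of all genes, and none in edgeR, while 1 was higher in DESeq2 (Rps20). At that unadjusted threshold 19 of the 73 members were lower in limma, against 1965 of 14840 genes, or 13.2%. At an adjusted p under 0.05, edgeR's quasi-likelihood test gave 0 higher and 5 lower, and DESeq2 gave 0 higher and 6 lower. The share of all genes called lower was 5.03% in edgeR and 5.94% in DESeq2. The 5 were Rps25, Rpl6, Rps26, Rps15a and Rpl41. The count moved with single libraries: it was 1 without control 1, 2 without control 1_1, 2 without control 2, 3 without Cre 2_2 and 9 without Cre 2. Averaging control 1 and control 1_1, whose names may mark one culture as those of Cre 2 and Cre 2_2 may, left 2. The share of all genes called lower in these runs is not given here. The counts therefore show only how the calls depend on the libraries, and are not set against a background.

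Rps25, a protein of the small subunit head, had the largest fall among the members. It stood at 885, 1058 and 1058 normalised counts in control 1, 1_1 and 2, and at 515, 436 and 586 in Cre 2, 2_2 and 3. Every Cre library was below every control library. The mean fell from 1000 ± 99.8 to 512 ± 75.5 (SD, n = 3 each), a log2 difference of -0.97 ± 0.14 (SE; limma, adjusted p = 0.00218). Its copies, which held a summed mean of 236 ± 24.2 in control and 152 ± 17.2 in Cre, were added to it in an alternative chosen after seeing the data, and the sum differed by -0.90 (limma, adjusted p = 0.0020).

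Rpl6, a protein of the large subunit surface, stood at 816, 572 and 516 in control and 305, 388 and 353 in Cre. The groups did not overlap, but control 1 lay well above the other control libraries. The log2 difference was -0.84 ± 0.18 (SE; limma, adjusted p = 0.0139), and without control 1 it was -0.65 (limma, adjusted p = 0.0735). Its copies held a summed mean of 196 ± 15.5 in control and 191 ± 49.8 in Cre. Rpl6 with its copies differed by -0.62 (limma, adjusted p = 0.0453).

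Rps26 stood at 3912, 3771 and 4304 in control and 2658, 3068 and 2616 in Cre. The groups did not overlap, and the mean fell from 3996 ± 276 to 2781 ± 250 (SD, n = 3 each). The log2 difference was -0.52 ± 0.12 (SE; limma, adjusted p = 0.0187). Leaving out control 1, control 1_1 or control 2 gave -0.54, -0.56 and -0.47 with adjusted p of 0.0844, 0.0512 and 0.0964 in limma, so the call was lost without any of the 3 control libraries. The copies of Rps26, mostly the Rps26-ps1 printed above, stood at 1459 ± 240 in control and 946 ± 273 in Cre, and the gene with its copies differed by -0.55 (limma, adjusted p = 0.0212).

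Rps15a, near the messenger entry side of the small subunit, stood at 774, 815 and 879 in control and 641, 525 and 550 in Cre. Rpl41, the smallest protein of the ribosome, stood at 566, 585 and 481 in control and 375, 414 and 379 in Cre. Both showed groups that did not overlap. The log2 differences were -0.53 ± 0.13 (SE; limma, adjusted p = 0.0259) for Rps15a and -0.48 ± 0.13 (adjusted p = 0.0449) for Rpl41. Without control 1 the adjusted p was 0.0836 for Rps15a and 0.185 for Rpl41. Rpl41 has no entry in GENCODE M1, so its copies were not examined.

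**Figure D2:**
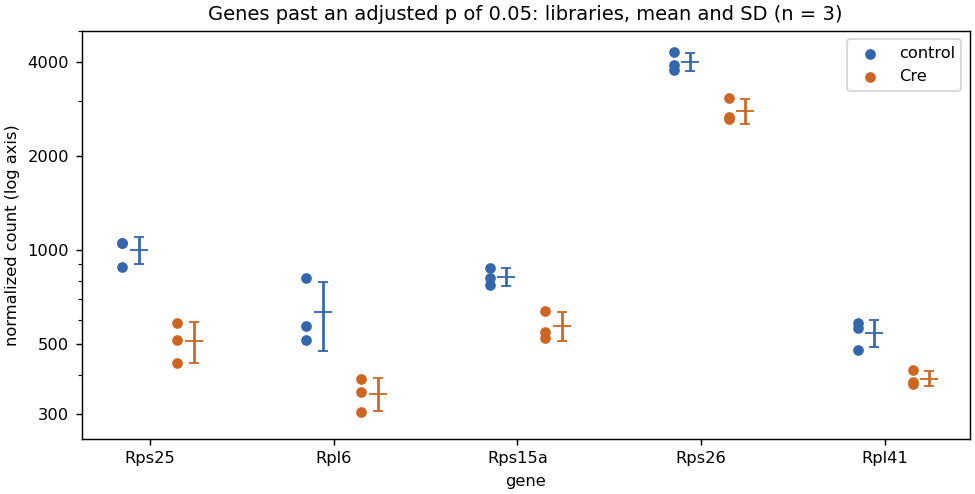
Normalised counts (log axis) of the 5 members past an adjusted p of 0.05 in each library, with the mean and SD beside the points (n = 3 each; blue control, orange Cre). In each of the 5 genes the 3 Cre libraries lie below the 3 control libraries, with Rps25 at 436 to 586 against 885 to 1058.

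Below these calls lay a small and broad difference of the family. Of the 73 members, 64 had a log2 difference below 0, or 87.7%, against 50.1% of all genes tested. The median over the members was -0.24, and over all genes it was -0.001. The medians were -0.23 for the 44 large subunit genes and -0.25 for the 29 small subunit genes. In 20 of the 73, or 27.4%, every Cre library lay below every control library, against 15.5% of all genes. No member showed the opposite, against 14.7% of all genes. This was not particular to the family. The same held for 22 of 76 mitochondrial ribosomal proteins (28.9%) and 9 of 35 proteasome subunits (25.7%), and none of either list showed the opposite. Members are not independent of each other, since they share the libraries and in part the same reads, and these counts carry no test.

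The broad difference was seen in each Cre library. The median over the members of the log2 level minus the control mean was -0.28 in Cre 2, -0.15 in Cre 2_2 and -0.35 in Cre 3, and -0.02, -0.05 and 0.07 in control 1, 1_1 and 2. Cre 2 was below all 3 control libraries in 41 members, Cre 2_2 in 31 and Cre 3 in 46. Scaling the libraries to the summed count of the family itself moves every gene alike, so the median became -0.09 for the members and 0.15 for all genes. Under that scaling 48 of 73 were below 0 and 1 member was called lower, which follows from how it is built.

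**Figure D3:**
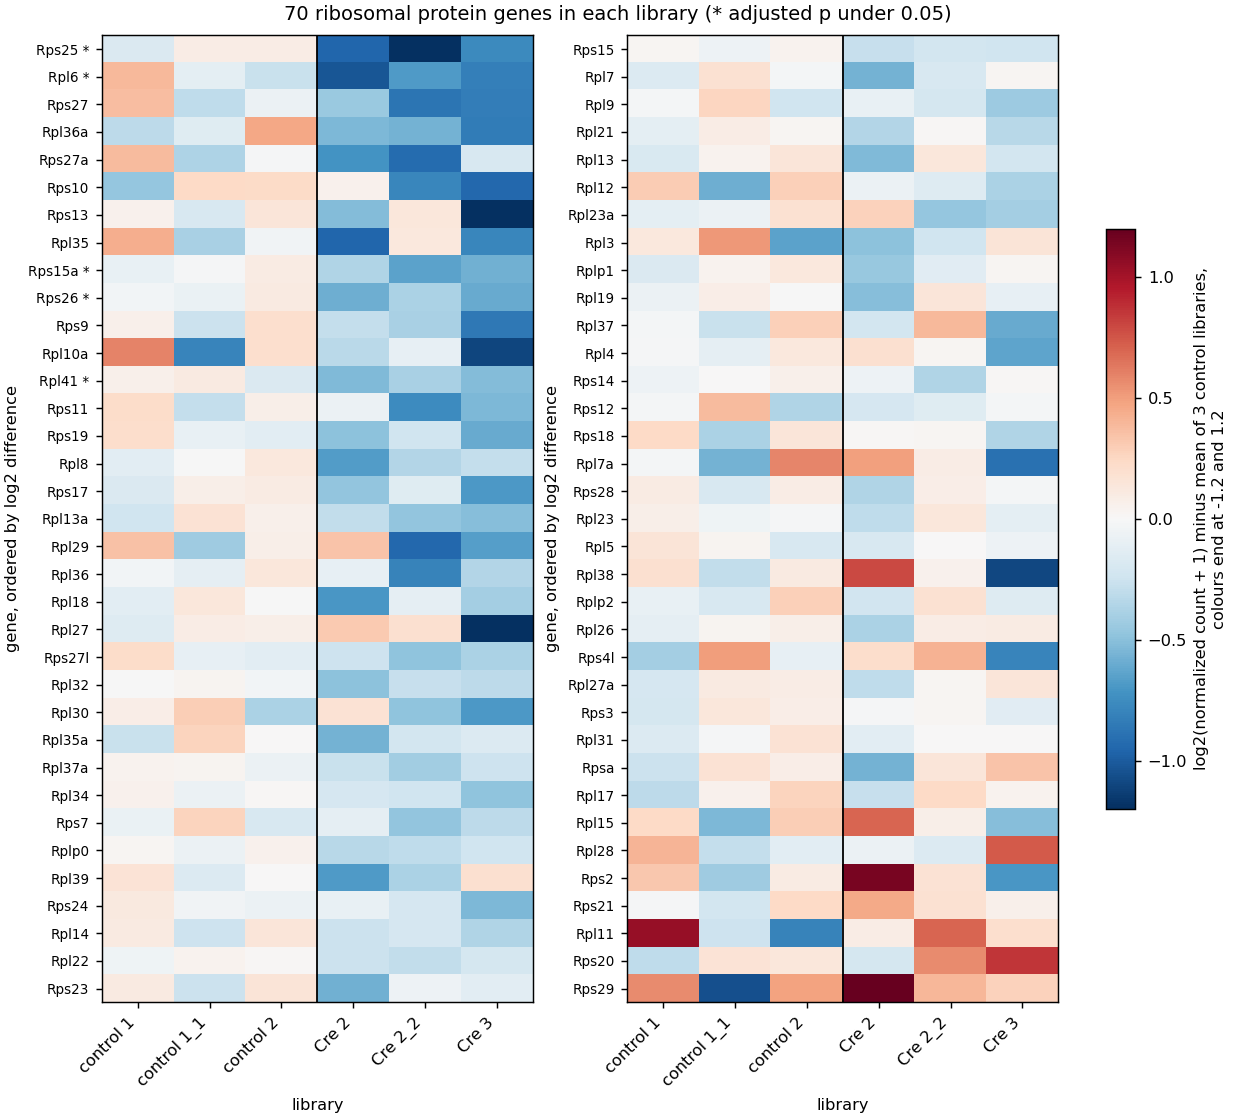
Each row is 1 of 70 members, ordered by log2 difference, and each column is 1 library; colour gives log2(normalised count + 1) minus the mean of the 3 control libraries. The left block is blue in most Cre columns, where 64 of all 73 members had a difference below 0, while Rps20, Rps2 and Rps29 at the lower right show Cre libraries that differ from each other.

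The members whose windows are most their own were also lower in value. All 14 members with a share of 5% or more had a log2 difference below 0, with a median of -0.26, and 8 of the 14 had groups that did not overlap, against 15.5% of all genes. None of the 14 was called. Of the called members, Rps25, Rpl6, Rps26 and Rps15a each had a share of 0%, and Rpl41 was not examined. Rpl8 stood at 16559, 17924 and 19725 in control and 11300, 14113 and 14736 in Cre, without overlap, for a log2 difference of -0.44 ± 0.15 (SE; limma, adjusted p = 0.0839), and DESeq2 gave an adjusted p of 0.0433. Rps9 stood at 3426, 2738 and 3778 against 2690, 2503 and 1810, for -0.51 ± 0.17 (SE; limma, adjusted p = 0.0805). Rpl22 stood at 7286, 7800 and 7616 against 6321, 6148 and 6524, for -0.26 ± 0.11 (SE; limma, adjusted p = 0.174). Rps3 overlapped, at 3675, 4679 and 4506 against 4218, 4341 and 3871. Its log2 difference was -0.04, with a 95% interval from -0.32 to 0.23. Rps3 and Rps9 were singled out after their values were seen.

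The stalk proteins did not share one pattern. Rplp0, which anchors the stalk to the large subunit, stood at 3629, 3407 and 3701 in control and 2845, 2892 and 3027 in Cre, without overlap, for -0.29 ± 0.11 (SE; limma, adjusted p = 0.114). Rplp1 overlapped, at 20345, 23576 and 25051 against 16664, 20808 and 23328, for -0.19 ± 0.16 (SE; limma, adjusted p = 0.506). Rplp2 stood at 53.2, 49.7 and 69.4 against 48.5, 64.6 and 51.0. Rplp1 and Rplp2 are used in equal numbers in the stalk, while their deposited levels per kb of coding sequence were 62692 and 161. Rpsa, a small subunit protein also known as a laminin receptor precursor, overlapped widely, at 1050, 1417 and 1323 against 847, 1383 and 1586.

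Related genes of the family stood at different levels, and none of those named here passed the test. Rps27 stood at 23.9, 14.6 and 17.3 in control and 13.2, 9.47 and 9.85 in Cre, for -0.72 ± 0.40 (SE; limma, adjusted p = 0.294), on 10 to 26 reads per library. Its relative Rps27l, a p53 target with 37.4% of its windows its own, stood at 1797, 1442 and 1416 against 1301, 1105 and 1187, for -0.37 ± 0.13 (SE; limma, adjusted p = 0.102). Rps27a, made as a fusion with ubiquitin, stood at 84.4, 49.7 and 64.0 against 38.8, 33.6 and 56.4. Rack1, a scaffold on the small subunit that lies outside the name rule, overlapped at 7757, 9047 and 8907 against 8563, 7773 and 8024.

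Among 18 members tied to Diamond-Blackfan anaemia, 1 was lower (Rps26), or 5.56% against 5.22% of all genes, which is near the background. In value 15 were below 0 and the median was -0.31. Rps19, the gene most often affected in that disease, stood at 273, 221 and 216 in control and 167, 199 and 155 in Cre, without overlap, for -0.45 ± 0.17 (SE; limma, adjusted p = 0.126). Rpl18 stood at 237, 284 and 257 against 159, 239 and 195, and Rps24 at 705, 632 and 620 against 611, 567 and 448. Rpl5 overlapped, at 257, 236 and 201 against 202, 231 and 220, with a log2 difference of -0.08 and a 95% interval from -0.43 to 0.26.

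Several of the largest differences rested on few reads. Rpl36a, Rps27a, Rps10, Rps13 and Rpl35 had log2 differences of -0.65, -0.61, -0.55, -0.54 and -0.53 at means under 100 normalised counts. None of these 5 was called, with adjusted p from 0.165 to 0.418 in limma. For Rps10 the copies held most of the reads. Rps10-ps1 was lower at 5804, 5330 and 6434 in control and 4426, 3740 and 3275 in Cre (log2 difference -0.63; limma, adjusted p = 0.0169), and Rps10 with its copies differed by -0.63 (adjusted p = 0.0175). The sum for Rps13 differed by -0.33 (limma, adjusted p = 0.113) and that for Rpl35 by 0.06 (adjusted p = 0.915), the opposite sign to the gene alone.

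The members above 0 were few and none passed the test. Rps29 had 0.70 ± 0.54 (SE; limma, adjusted p = 0.461) on 3 to 42 reads per library, and with its copies the sum differed by -0.30. Rpl11 had 0.33 ± 0.51 on 5 to 29 reads, and with its copies the sum was lower (log2 difference -0.55; limma, adjusted p = 0.0228), so the sign of both turned when copies were added. Rps21, named after its values were seen, stood at 788, 682 and 942 in control and 1091, 907 and 829 in Cre, for 0.23 ± 0.15 (SE; limma, adjusted p = 0.378), and with its copies at -0.09.

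Rps20, a small subunit protein near the messenger decoding site, varied most in absolute terms and was singled out for that. It stood at 12339, 17167 and 16817 in control and 13173, 22569 and 27632 in Cre. Cre 2 was at the level of control 1, while Cre 2_2 and Cre 3 were above every control library. The log2 difference was 0.40 ± 0.24 (SE; limma, adjusted p = 0.337), and without Cre 2 it was 0.71 and passed the test (adjusted p = 0.0121). Of 45 members with a mean of 100 or more, 4 were at least 1.5 times higher in Cre 3 than in Cre 2 and 3 were lower by the same factor. Rpl4 was one of these, at 9798 in Cre 2, 8704 in Cre 2_2 and 5533 in Cre 3, and Rps2 another, at 262, 133 and 72.5. Rpl4 and Rps2 were also named after their values were seen. The Cre libraries thus differed from each other in single members in both directions, and the chi-square per degree of freedom over the 73 genes was 29.0 to 127 between pairs of Cre libraries and 6.39 to 18.2 between pairs of control libraries. Over all genes it was 16.2 to 36.0 and 5.85 to 17.7. This statistic compares the spread with counting noise and grows with depth, and every Cre library was deeper than every control library.

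Rps20 decided the summed level of the small subunit. The summed normalised count of the 73 genes was 130994 ± 9083 in control and 118138 ± 12212 in Cre (SD, n = 3 each), with overlap (exact two-sided permutation test, p = 0.3). With 3 against 3 libraries the smallest p this test can give is 0.1. The large subunit summed to 77597, 83733 and 88418 in control and 64502, 72779 and 72870 in Cre, without overlap, a change of -15.9% (exact permutation test, p = 0.1). The small subunit summed to 43710, 48625 and 50900 in control and 39718, 50353 and 54192 in Cre, with overlap (exact permutation test, p = 1.0). Without Rps20 it summed to 31370, 31457 and 34083 in control and 26545, 27784 and 26559 in Cre, without overlap (exact permutation test, p = 0.1). The ratio of the small to the large subunit sum was 0.573 ± 0.009 in control and 0.684 ± 0.064 in Cre (SD, n = 3 each). The groups did not overlap in this ratio (exact permutation test, p = 0.1). Without Rps20, left out after its values were seen, the ratio was 0.388 ± 0.015 and 0.386 ± 0.024 (exact permutation test, p = 0.9).

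**Figure D4:**
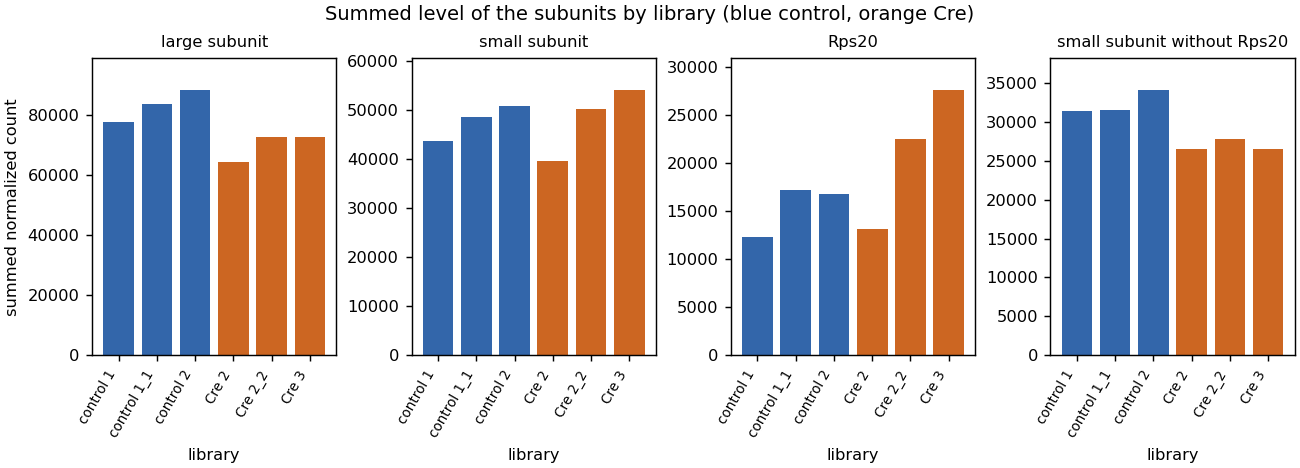
Summed normalised counts (each axis from 0) in each library for the large subunit genes, the small subunit genes, Rps20 alone and the small subunit genes without Rps20; blue bars are control and orange bars Cre libraries. The small subunit bars overlap between groups, at 39718 to 54192 in Cre, and separate once Rps20 is left out, at 26545 to 27784 in Cre against 31370 to 34083 in control.

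The start regions of the members shared a feature that the name rule did not use. RefSeq start regions (GRCm38.p6) were at hand for 52 of the 73 members, and the longest run of C or T on the sense strand was taken between 25 bases before and 50 bases after the annotated start. A run of at least 8 such bases was present in 44 of the 52, or 84.6%, against 30.4% of all 27025 genes in that table and 28.7% of the 9678 of them among the genes tested. This counts a run anywhere in that range, so it does not show that the messenger starts with the run. A narrower count took members with a C at the annotated start that is followed directly by a short run of C or T. It gave 12 of the 52, or 23.1%. The same count gave 3.01% of all genes in that table and 3.08% of those tested. The median longest run was 11 bases in the members and 6 in all genes. The runs of the 5 members called lower are shown first, followed by 3 that were not called, each as 30 bases, 5′ to 3′ on the gene's strand, with the run in capitals.
Rps25: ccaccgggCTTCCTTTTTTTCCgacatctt
Rpl6: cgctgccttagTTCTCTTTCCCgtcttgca
Rps26: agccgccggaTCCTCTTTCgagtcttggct
Rps15a: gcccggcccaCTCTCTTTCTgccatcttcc
Rpl41: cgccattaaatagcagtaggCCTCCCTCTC
Rplp0: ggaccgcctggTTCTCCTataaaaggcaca
Rps21: ggaggcacgagctaCTTCCTTTCTgcgctc
Rps27l: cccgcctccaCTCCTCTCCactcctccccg
In GRCm38.p6 these lie at chr9:44407684-44407713 (plus strand), chr5:121204521-121204550 (plus), chr10:128626484-128626513 (minus), chr7:118116143-118116172 (minus), chr10:128549119-128549148 (minus), chr5:115559467-115559496 (plus), chr2:180257399-180257428 (plus) and chr9:66946054-66946083 (plus).

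The runs were 14 bases in Rps25, 11 in Rpl6, 9 in Rps26, 10 in Rps15a, 7 in Rplp0, 10 in Rps21 and 9 in Rps27l. That of Rpl41 reached the last base of the searched range, so it was at least 10 bases. The runs began from 22 bases before to 40 bases after the annotated start, so annotated and used start sites need not coincide. The 44 members with a run of at least 8 had a median log2 difference of -0.26 with 39 below 0, and the 8 members without one had -0.18 with 8 below 0. A run of this length did not set apart the called members, since Rps21 carries one as well.

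Other genes of the ribosome's production line were read from lists chosen beside the members. Among 73 ribosome assembly factors 68 were below 0, with a median of -0.42. Of the factors 33 were lower, or 45.2% against 5.22% of all genes, and none was higher. They include Nop10, a part of the particles that modify ribosomal RNA, which fell from 1253 ± 113 to 603 ± 53.8 normalised counts (log2 difference -1.05; limma, adjusted p = 0.000673), and Rcl1, a factor of ribosomal RNA processing, which fell from 1554 ± 154 to 707 ± 183 (-1.16; adjusted p = 0.00247). Nop16 and Mybbp1a, both nucleolar proteins, fell by 0.95 and 0.80 on the log2 scale. The summed level of the assembly factors was 91800 to 92561 in control and 62204 to 71731 in Cre. Of 15 genes of RNA polymerase I and its factors 4 were lower (Polr1a, Polr1b, Polr1c and Polr1e), or 26.7%, and none higher. Their median was -0.36. Thus a larger share of the assembly factors than of the ribosomal proteins passed the test, and the difference between the lists was not tested.

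Messengers of the same TOP class, which encode translation factors, gave values close to those of the ribosomal proteins. All 20 were below 0, with a median of -0.25. Of these 4 were lower, or 20% against 5.22% of all genes. They were Eif4b (-0.58), Eif3e (-0.59), Pabpc1, the poly(A) binding protein (-0.51) and Eef1d (-0.50). A run of at least 8 pyrimidines was present in 9 of 14 such genes with a start region at hand, and in 16 of 61 assembly factors, or 26.2%. Among 12 snoRNA host genes 1 was lower (Snhg4), or 8.33%, with a median of -0.22. Among 22 genes of mTORC1, LARP1 and MYC control 1 was lower, or 4.55%, near the share of all genes. This was Cnbp, a protein that binds TOP messengers (-0.59, limma, adjusted p = 0.00823). The median of the 22 genes was 0.04.

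For scale, 76 mitochondrial ribosomal proteins had a median of -0.17, with 61 below 0 and 1 lower (Mrpl12). That is 1.32%, against 5.22% of all genes. The 35 proteasome subunits had a median of -0.13 with none called and 28 below 0. At an unadjusted p under 0.05 in limma, 8 of these 35 and 18 of the 76 mitochondrial ribosomal proteins were lower, against 13.2% of all genes. The 77 subunits of the respiratory chain and ATP synthase had a median of -0.08, with 1 higher and 4 lower, or 5.19%. Among 52 pseudogene rows named after a ribosomal protein gene 3 were lower (Rpsa-ps10, Rps10-ps1 and Rps25-ps1), or 5.77%, and the median was -0.19. The 89 tested rows that matched a member's coding sequence had a median of -0.14, with 59 below 0. Of these rows 4 were lower, or 4.49%, among them Gm10288, a copy of Rpl11. The shares of the respiratory subunits and of both sets of copy rows were near that of all genes. Rpsa itself had a log2 difference of -0.03 while Rpsa-ps10 stood at 555, 480 and 584 in control and 305, 297 and 239 in Cre.

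**Figure D5:**
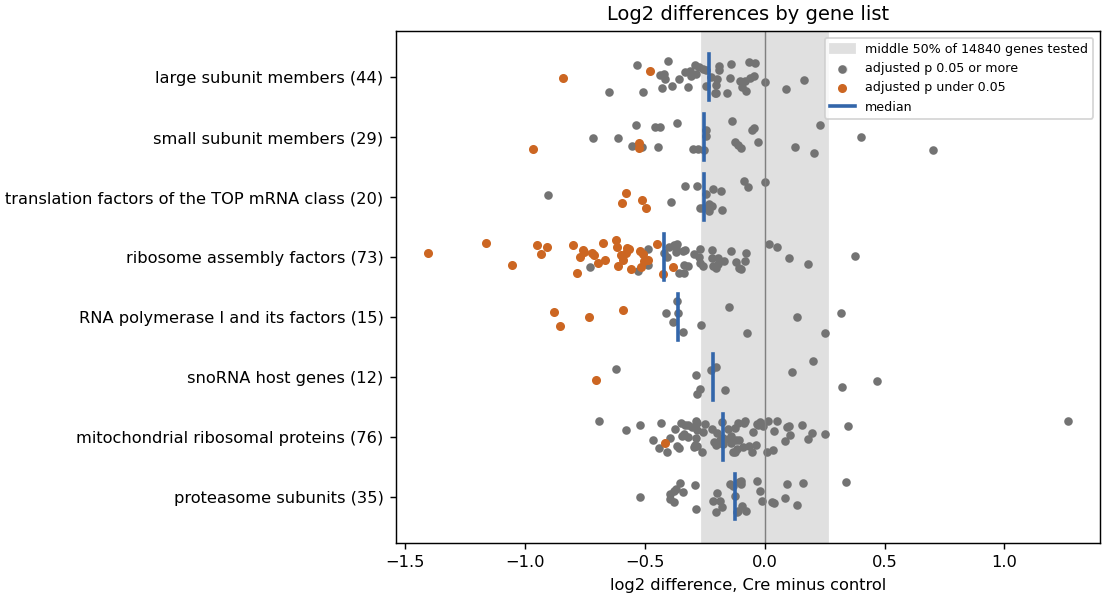
Log2 differences (Cre minus control) of single genes in 8 lists, with the number tested in brackets, the median as a blue bar and genes past an adjusted p of 0.05 in orange; the grey band holds the middle 50% of all 14840 genes. Both ribosomal protein lists have medians near the lower edge of the band, at -0.23 and -0.25, and the assembly factors lie further left, at -0.42.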

How the data were processed

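RNA of 6 NSC samples was sequenced after TruSeq library preparation. The deposited table gives 1 signal value per gene and library, gene counts that the authors divided by a size factor per library, as the steps of the values show; the submitters' notes name STAR 2.7 and mm10, and the methods name TopHat with mm9 and mm10. The read counter, its strand setting and its handling of reads with several matches are not given in the sources used here. Whole reads were recovered from the value of 1 read per library (100% of values within 0.001 of a whole number). The authors' own comparison columns (fold change and p) were not used. A row with a missing value was left out. The main test was limma 3.58.1 with a trend on log2(value + 1) for genes with a mean of at least 10, with Benjamini-Hochberg adjustment over all 14840 genes; edgeR 4.0.16 and DESeq2 1.42.0 ran on the recovered reads. Scripts were tested on simulated data. Other pseudocounts, filters, scalings and thresholds, averaged libraries and the omission of each library were tried as alternatives, and summing members with copies or leaving out Rps20 was added after seeing the data. Copies were found with BLAST 2.17.0 (megablast, word 20). Named were called members, the 10 largest differences, the 5 highest and 5 lowest per kb of exon, a fixed list, and up to 4 genes with the lowest p of each other list; further names are marked. The members and lists were chosen with earlier results of these data known. Sequencing reads without molecular identifiers are not independent molecules, so the floor of 3 reads covers counting error only. Results for a few genes are not reported here.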

Additional observations from a re-analysis of the deposited data

How the results depend on the processing

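The count of members lower (5) and higher (0) and the medians were recomputed under 20 alternatives. The share of all genes called in each alternative is not given beside the counts below, so they are not set against a background. The count of lower members was 1 with scaling to the summed ribosomal protein genes, 2 with control 1 and 1_1 averaged, 9 at an adjusted p under 0.1, and from 1 to 9 with 1 library left out; the count of higher members was from 0 to 1 with 1 library left out (Rps20, without Cre 2). Under the family scaling the medians moved to -0.093 (all members), -0.082 (large subunit) and -0.10 (small subunit). This scaling moves every gene alike, with a median of 0.15 over all genes, so its changes follow from how it is built. The median of the members lay between -0.28 and -0.21 with 1 library left out, and the summed level kept its sign in each setting run. The 5 called members kept their sign in each. Values of the 39 named members changed sign in 32 of 772 cases. Under the family scaling these were Rpl4 (0.010), Rpl5 (0.068), Rplp2 (0.084), Rps14 (0.016), Rps3 (0.11), Rps4l (0.086) and Rpsa (0.12). With copies added they were Rpl11 (-0.55), Rpl35 (0.063), Rpl39 (0.022), Rps21 (-0.088) and Rps29 (-0.30). Rps4l and Rpsa turned with edgeR (0.034 and 0.0099) and DESeq2 (0.015 and 0.012), and Rpsa with Cre 2 and 2_2 averaged (0.085). With 1 library left out, values that changed sign ranged for Rpl11 from -0.073 to 0.85, Rpl3 from -0.51 to 0.068, Rpl37 from -0.41 to 0.082, Rpl4 from -0.31 to 0.10, Rplp2 from -0.19 to 0.075, Rps2 from -0.26 to 0.66, Rps3 from -0.15 to 0.024, Rps4l from -0.29 to 0.31 and Rpsa from -0.21 to 0.24. The cause of the other changes was not tested. No paired analysis was possible because the groups share only the number 2. Depth limits the lowest members, such as Rps29 with 3 to 42 reads per library.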
